A study of Mus musculus with 9 samples.

Results

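miR-132 and miR-212 are microRNAs (miRNAs, small RNAs that silence messenger RNAs by base pairing) cut from neighbouring hairpins of 1 transcript. They were taken by name from a table of mature miRNAs, where 4 of 946 rows matched: mmu-miR-132-3p, mmu-miR-132-5p, mmu-miR-212-3p and mmu-miR-212-5p, given below without the species prefix. Small RNA was sequenced from livers of wild-type C57 BL6 mice aged 8 weeks, with 3 libraries in each of 3 groups. Animals of the dmPGE2+APAP group received dmPGE2 at 300 µg/kg and, 1 h later, acetaminophen (APAP) at 500 mg/kg, both into the peritoneum. dmPGE2 is a synthetic, methylated form of prostaglandin E2. The APAP group had 500 mg/kg APAP without dmPGE2, and the Control group had saline. The Control columns of the table carry the prefix BC, which the labels do not explain. They were taken as Control because the other columns match the other 2 groups, and every Control value below rests on that. Livers were taken 6 h after APAP. No group had dmPGE2 without APAP, and the labels name no vehicle for dmPGE2, so dmPGE2 was compared on top of APAP only. Whether every library came from its own animal is not in the labels, so the p-values below speak only of how far these libraries spread, a spread that may be technical.

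The transcript of miR-132 and miR-212 is a classic target of CREB, a transcription factor that cyclic AMP (cAMP) signalling activates by phosphorylation. The prostaglandin E2 receptors EP2 and EP4 raise cAMP, which is the link between dmPGE2 and these miRNAs that the comparison addresses. The cluster is best known from neurons, where it responds to activity and represses regulators of dendrite growth. It also responds to inflammatory stimuli in myeloid cells, where miR-132-3p represses acetylcholinesterase, and it has been studied in hepatic stellate cells.

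Both hairpins lie on the plus strand of chromosome 11 in GRCm38.p6, the RefSeq assembly that matches the mm10 build of the deposited table. Mir212 spans chr11:75173388-75173478 and Mir132 spans chr11:75173682-75173747, with 203 bases between them. The nearest annotated genes are Ovca2, 2196 bases away, and Hic1, 3133 bases away. The 4 mature sequences are printed below because the seed decides which messenger RNAs a miRNA can pair with. They are from RefSeq, 5′ to 3′, with the seed (bases 2 to 8) in capitals.
miR-132-3p: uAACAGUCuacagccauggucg
miR-212-3p: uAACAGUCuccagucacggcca
miR-132-5p: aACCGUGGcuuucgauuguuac
miR-212-5p: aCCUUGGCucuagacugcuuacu

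The 3p arms share 1 seed, and no other mature mouse miRNA in the RefSeq table has it. They are identical at 17 of 22 bases. Counted from the 5′ end, with the base of miR-132-3p first, they differ by A10C, C14U, U17C, U20C and G22A. The 5p arms have 2 different seeds, which no other listed mature miRNA shares. No other row of the table had counts within 2 reads or 5% of a member's in every library, so none of the 4 rows looked like a second count of another row's reads.

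The libraries held between 1038799 and 10483460 reads, and the shallowest was dmPGE2+APAP library 2. Liver identity was clear from the 6 hepatocyte miRNAs, miR-122-5p among them, which together held 353235 to 392855 CPM (counts per 1000000 reads) in dmPGE2+APAP, 328715 to 388394 in APAP and 375726 to 525087 in Control. CPM here means reads scaled to a common library total with the TMM method of edgeR, which lines up the bulk of miRNAs between libraries. Counting intervals below cover counting error only, since PCR copies are not independent molecules.

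All 4 miRNAs were scarce in these livers. Together they took 995 of 58272368 reads, or 17.1 CPM before TMM scaling. By mean level over all libraries miR-132-5p ranked 211 of 946 rows at 9.62 CPM, and miR-132-3p ranked 237 at 7.17 CPM. miR-212-5p ranked 339 at 1.51 CPM and miR-212-3p ranked 416 at 0.56 CPM. The mature forms are 22 or 23 bases long, so length hardly enters a comparison between them. The miR-132 hairpin held 88.5% to 93.1% of cluster reads in dmPGE2+APAP libraries, 86.5% to 87.3% in APAP libraries and 87.8% to 92.5% in Control libraries, so miR-132 outnumbered miR-212 in all 9.

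miR-132-3p, the strand with the best known targets, had 8.62, 3.41 and 8.99 CPM in dmPGE2+APAP, against 11.7, 3.15 and 13.2 CPM in APAP and 4.55, 5.84 and 5.16 CPM in Control (libraries 1, 2 and 3 of each group). These values rest on 61, 4 and 44 reads in dmPGE2+APAP, 81, 23 and 55 reads in APAP and 31, 43 and 56 reads in Control. In both APAP-treated groups libraries 1 and 3 lay above every Control library, and library 2 lay below every Control library. Group means were 7.01 ± 3.12 CPM in dmPGE2+APAP, 9.32 ± 5.40 CPM in APAP and 5.18 ± 0.648 CPM in Control (SD, n = 3 each), and the groups overlapped in all 3 comparisons. The low value of dmPGE2+APAP library 2 comes from 4 reads and has a wide exact Poisson 95% interval, 0.929 to 8.73 CPM. That of APAP library 2 rests on 23 reads, with an interval of 1.997 to 4.73 CPM, which ends under the intervals of APAP libraries 1 (9.26 to 14.5 CPM) and 3 (9.91 to 17.1 CPM). In bulk liver a smaller number of cells holding a miRNA and a lower amount per cell cannot be told apart.

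miR-132-5p, the other strand of that hairpin, had 9.19, 19.6 and 8.38 CPM in dmPGE2+APAP, against 9.07, 7.40 and 10.04 CPM in APAP and 8.07, 5.84 and 9.03 CPM in Control. Here the single library that stood out was dmPGE2+APAP library 2, which was high where its 3p partner was low. Its 19.6 CPM rests on 23 reads, with a Poisson interval of 12.4 to 29.4 CPM. Group means were 12.4 ± 6.25 CPM in dmPGE2+APAP, 8.84 ± 1.34 CPM in APAP and 7.65 ± 1.63 CPM in Control (SD, n = 3 each). Without that library the dmPGE2+APAP mean was 8.79 CPM. The levels of miR-132-5p and miR-132-3p overlapped between libraries in both APAP-treated groups. In Control they met at 5.84 CPM in library 2, and miR-132-5p was otherwise the higher.

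miR-212-5p had 1.70, 1.70 and 1.84 CPM in dmPGE2+APAP, against 1.87, 1.10 and 1.91 CPM in APAP and 0.88, 1.22 and 1.38 CPM in Control. All 3 dmPGE2+APAP libraries lay above all 3 Control libraries, while the APAP libraries overlapped with both other groups. Among the 360 miRNAs tested, 6.11% lay wholly higher in dmPGE2+APAP than in Control, so 1 of the 3 tested members in that position adds little. Its reads numbered 12, 2 and 9 in dmPGE2+APAP, 13, 8 and 8 in APAP and 6, 9 and 15 in Control, and the Poisson interval of dmPGE2+APAP library 2 ran from 0.206 to 6.16 CPM.

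miR-212-3p, which shares its seed with miR-132-3p, was the rarest of the 4. It had 3, 0 and 2 reads in dmPGE2+APAP, against 8, 4 and 7 reads in APAP and 1, 3 and 3 reads in Control. As levels these are 0.424, 0 and 0.409 CPM in dmPGE2+APAP, 1.15, 0.548 and 1.67 CPM in APAP and 0.147, 0.408 and 0.276 CPM in Control. Every APAP library lay above every library of either other group. Over the whole table of 946 rows, 5.18% were wholly higher in APAP than in Control and 4.65% wholly lower in dmPGE2+APAP than in APAP, and both positions of miR-212-3p rest on the same 3 APAP libraries. The 0 in dmPGE2+APAP library 2 has an exact Poisson 95% interval that reaches 3.14 CPM, and 3 reads there would be 2.56 CPM. Both are above the APAP values, so the separation there was not detectable at this depth.

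**Figure D1:**
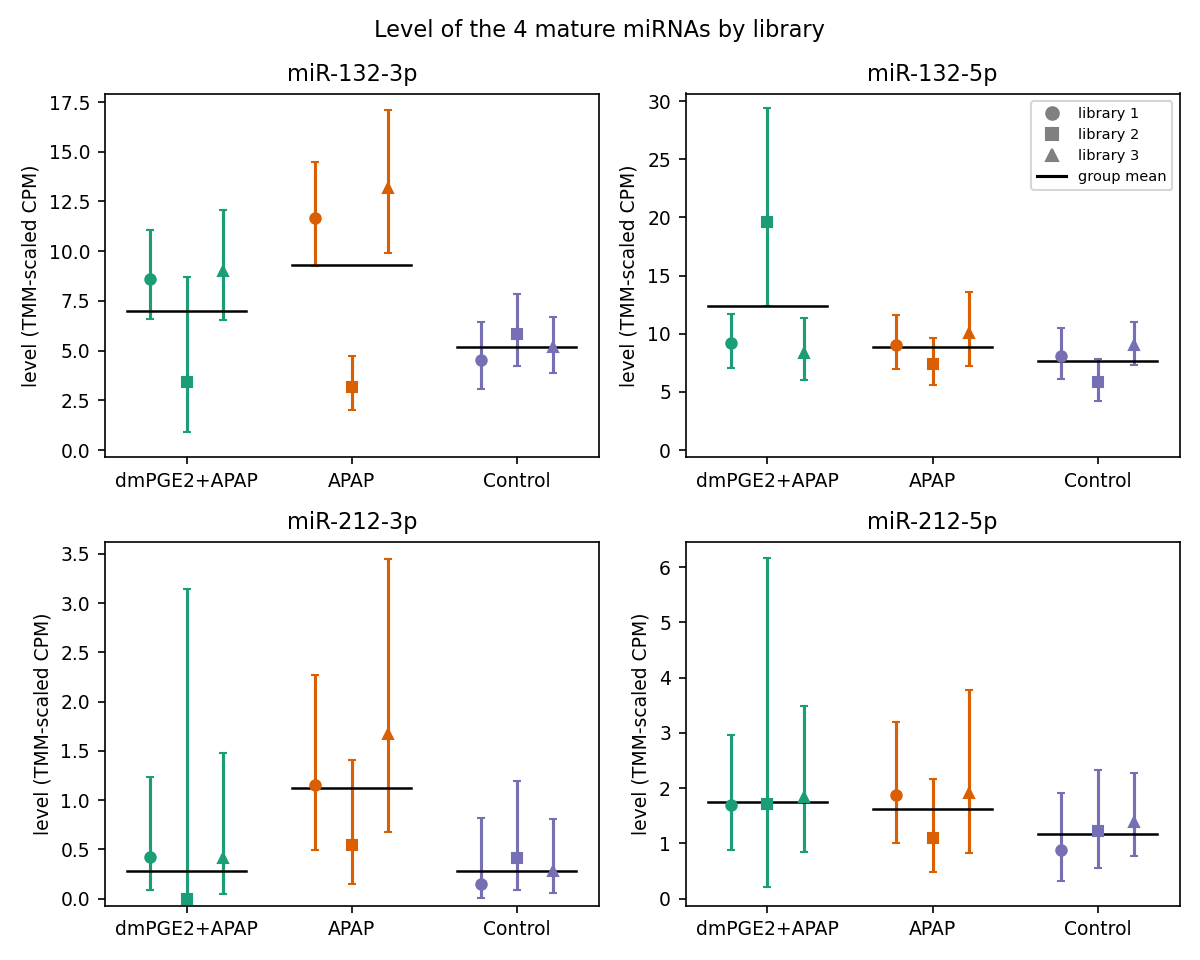
Level of each mature miRNA (TMM-scaled CPM, linear axis) in the 9 libraries by group; symbols give the library number, bars the exact Poisson 95% interval of the reads and black lines the group mean. APAP library 2 is the lowest APAP library for all 4 miRNAs, and dmPGE2+APAP library 2, with the fewest reads, has the widest interval for all 4.

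The balance between the strands of a hairpin is a measure within each library that no scaling of libraries touches. For miR-132 the 3p strand held 48.4%, 14.8% and 51.8% of hairpin reads in dmPGE2+APAP, against 56.2%, 29.9% and 56.7% in APAP and 36.05%, 50% and 36.4% in Control. The exact (Clopper-Pearson) 95% interval of dmPGE2+APAP library 2, 4.19% to 33.7% on 27 reads, ended below those of the other 2 dmPGE2+APAP libraries. Likewise that of APAP library 2, 19.97% to 41.4% on 77 reads, ended below those of the other 2 APAP libraries. These libraries were singled out after their values were seen, and the intervals leave out the spread between libraries. The 3 groups overlapped.

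For miR-212 the 3p strand held 20%, 0% and 18.2% of hairpin reads in dmPGE2+APAP, against 38.1%, 33.3% and 46.7% in APAP and 14.3%, 25% and 16.7% in Control. Every APAP library was above every other library, on the same miR-212-3p reads as the levels above, so this is not a separate observation. How often other hairpins separate in this way was not computed. Pooled over the libraries of a group, 5 of 28 reads were 3p in dmPGE2+APAP, 19 of 48 in APAP and 7 of 37 in Control. With 2 to 21 reads in a library the intervals were wide, and that of APAP library 1 (18.1% to 61.6%) overlapped with that of Control library 2 (5.49% to 57.2%). Strand shares were described and not tested.

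**Figure D2:**
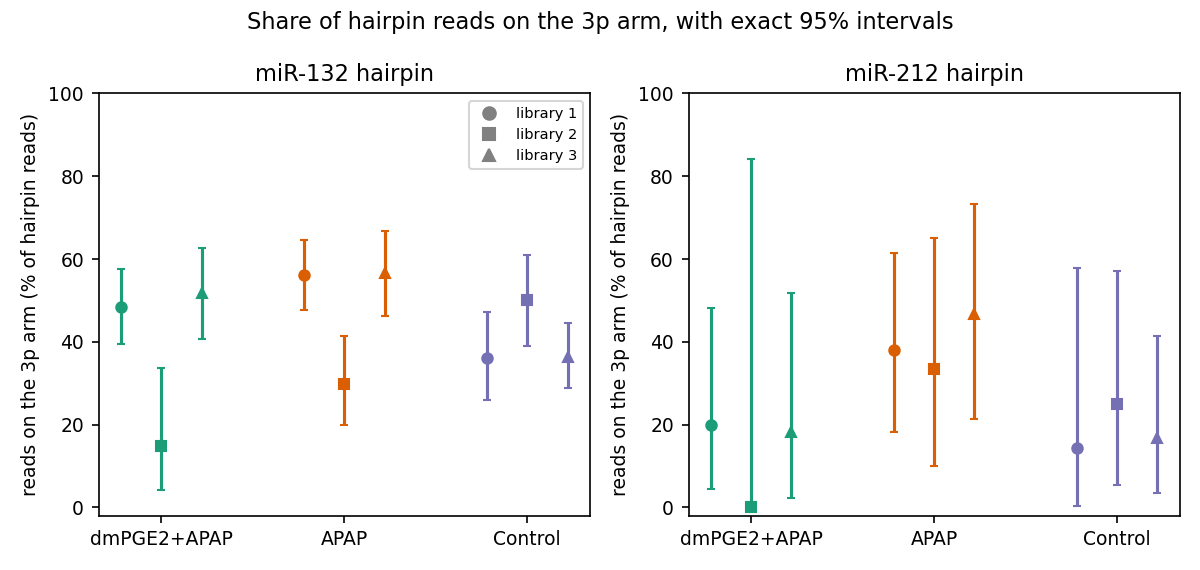
Percent of each hairpin's reads that fall on the 3p strand in each library (symbols as library numbers, bars the exact 95% binomial interval), miR-132 on the left and miR-212 on the right. For miR-132 library 2 is the lowest in dmPGE2+APAP and in APAP; for miR-212 the 3 APAP libraries, at 33.3% to 46.7%, sit above all others, with wide intervals.

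The comparison of APAP with Control asked how the cluster differed 6 h after APAP. Of the 4 members, 3 passed the filter on low counts and were tested among 360 miRNAs, and 0 were called by edgeR's quasi-likelihood test at an adjusted p of 0.05. In the same comparison 0.833% of all tested miRNAs were called. At an unadjusted p under 0.05 the members still numbered 0 with edgeR, DESeq2 and limma-voom, where edgeR had 9.72% of all tested miRNAs. miR-132-3p had the largest of the 3 log2 values, 0.82 (95% interval -0.11 to 1.75), with an edgeR adjusted p of 0.532. miR-212-5p had 0.43 (-0.58 to 1.45, edgeR adjusted p 0.791) and miR-132-5p had 0.20 (-0.52 to 0.91, edgeR adjusted p 0.891). All 3 values lay above 0, as did 44.7% of all tested miRNAs, whose median was -0.05.

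APAP library 2 set much of the size for miR-132-3p. Without it the log2 value was 1.26 with an edgeR adjusted p of 0.0911, and without APAP library 3 it was 0.51. The variation of miR-132-3p between libraries beyond counting was 36.5%, as edgeR's biological coefficient of variation, against a median of 25.6% over all tested miRNAs. It was 27.2% for miR-132-5p and 25.01% for miR-212-5p, both near that median.

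miR-212-3p did not pass the filter and was compared by its reads, 19 in APAP and 7 in Control. Scaled for depth, APAP held 3.69 times as many (1.48 to 10.4 by the exact 95% interval on these reads, which leaves out the spread between libraries). The ratio ranged from 3.01 to 4.82 with any 1 library of these groups left out. With the filter removed, edgeR fitted a log2 value of 1.80 (SE 0.87) with an unadjusted p of 0.0388 and an adjusted p of 0.627 over 946 rows. In that fit miR-132-3p, which has the same seed, stood at 0.74 (SE 0.36) with an unadjusted p of 0.0437 and the same edgeR adjusted p of 0.627. Neither passed.

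The comparison of dmPGE2+APAP with APAP alone addresses what the prostaglandin E2 analog added, and 0 of the 3 tested members were called in it, at an adjusted p or at an unadjusted p under 0.05, with edgeR, DESeq2 or limma-voom. Of all tested miRNAs 0.278% were called, and 6.39% had an unadjusted edgeR p under 0.05. miR-132-3p had a log2 value of -0.27 (95% interval -1.22 to 0.69, edgeR adjusted p 0.925), miR-132-5p 0.37 (-0.38 to 1.13, 0.902) and miR-212-5p 0.13 (-0.95 to 1.21, 0.983). Of the 3 values 2 lay above 0, as did 50% of all tested miRNAs. Each interval was wide: that of miR-132-3p ended at 0.69, and those of the other 2 reached past a log2 value of 1. For miR-132-3p the sign turned without APAP library 3 (0.11) and with limma-voom (0.061), and for miR-212-5p it turned without APAP library 2 (-0.094). The value of miR-132-5p depended on the high dmPGE2+APAP library 2, and without it stood at 0.046.

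miR-212-3p had 5 reads in dmPGE2+APAP against 19 in APAP, or 0.369 times as many once scaled for depth (0.108 to 1.02 by the exact 95% interval on the reads). With any 1 library of these groups left out the ratio lay between 0.282 and 0.452. With the filter removed edgeR fitted a log2 value of -1.50 (SE 0.96) with an adjusted p of 0.883, so the lower reads did not pass either. The APAP libraries serve in this comparison and in the one above, so the 2 opposite values of miR-212-3p are not separate observations.

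Livers given both agents were also set against Control, and 0 of the 3 tested members were called by edgeR, DESeq2 or limma-voom, adjusted or at an unadjusted p under 0.05. Of all tested miRNAs 0.278% were called, and 10.6% had an unadjusted edgeR p under 0.05. The log2 values were 0.56 for miR-132-3p (95% interval -0.41 to 1.52, edgeR adjusted p 0.675), 0.57 for miR-132-5p (-0.18 to 1.32, 0.521) and 0.56 for miR-212-5p (-0.51 to 1.64, 0.675). All were above 0, as were 46.1% of all tested miRNAs. Without the shallow dmPGE2+APAP library 2 they stood at 0.83, 0.26 and 0.63 in the same order, so that of miR-132-5p depended on it. miR-212-3p, with 5 reads in dmPGE2+APAP and 7 in Control, had 1.36 times as many once scaled for depth (0.341 to 4.98 by the same kind of interval). Summed over its 4 members, the cluster held 19.9, 24.7 and 19.6 CPM in dmPGE2+APAP, against 23.8, 12.2 and 26.8 CPM in APAP and 13.6, 13.3 and 15.8 CPM in Control. As a sum the dmPGE2+APAP libraries all lay above the Control libraries, whereas APAP library 2 was the lowest of all 9. Of single tested miRNAs 6.11% lay wholly higher in dmPGE2+APAP than in Control. The highest sum, in dmPGE2+APAP library 2, rests on 29 reads, 23 of them miR-132-5p. The sum is given as a description, without a test.

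**Figure D3:**
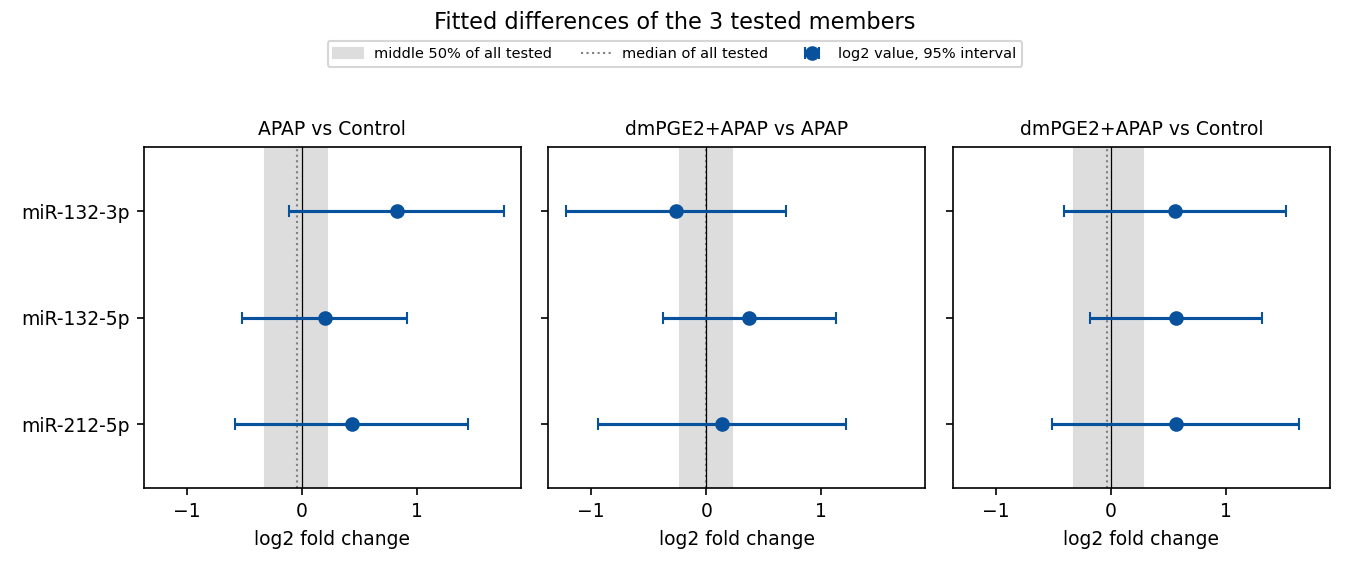
Log2 fold changes of the 3 tested members in the 3 comparisons (first-named group over second), with 95% intervals from the edgeR fit; the grey band holds the middle 50% of the 360 tested miRNAs and the dotted line their median. Each interval includes 0, and miR-132-3p in APAP vs Control lies farthest from the median of all miRNAs.

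**Figure D4:**
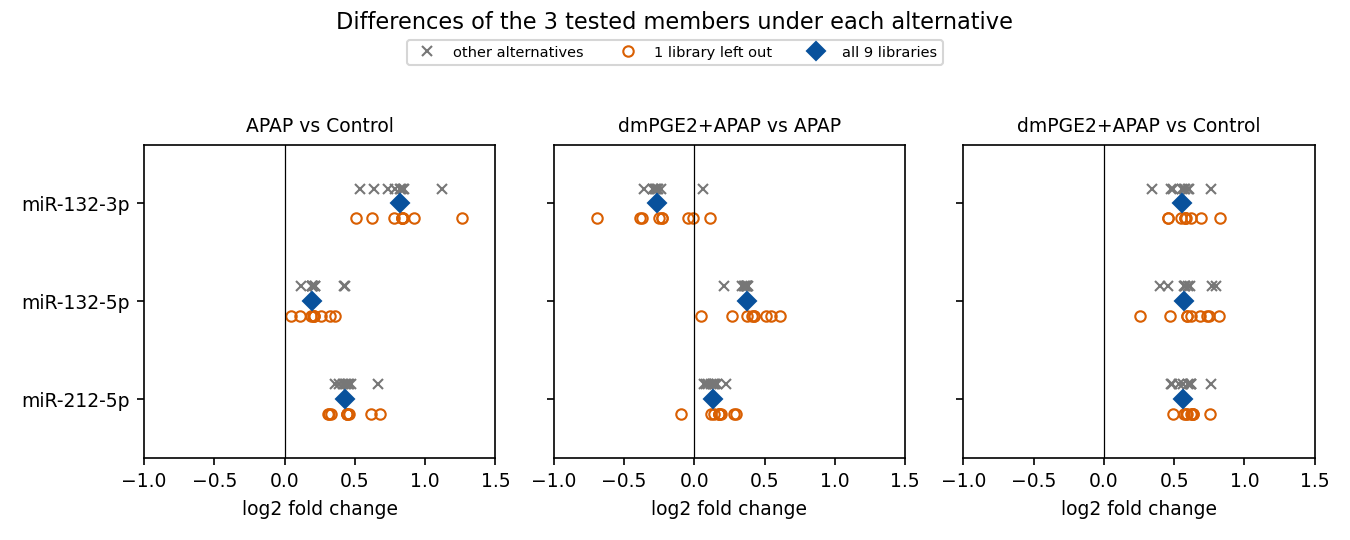
Log2 fold changes of the 3 tested members with all 9 libraries (diamonds), with 1 library left out (circles) and under the other alternatives (crosses). In APAP vs Control and in dmPGE2+APAP vs Control every value is above 0, while in dmPGE2+APAP vs APAP miR-132-3p runs from -0.69 to 0.11.

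The members were also read beside other miRNAs tied to cAMP or CREB. Of 14 rows of that list in the table, the members included, 8 were tested and 0 were called by edgeR, DESeq2 or limma-voom in any of the 3 comparisons. At an unadjusted p under 0.05 edgeR had 1 in APAP vs Control, 0 in dmPGE2+APAP vs APAP and 1 in dmPGE2+APAP vs Control, where all tested miRNAs had 9.72%, 6.39% and 10.6%. The first was miR-184-3p, with a log2 value below 0 (-0.86, edgeR adjusted p 0.444), and the other was miR-9-5p, above 0. The median log2 value was 0.21 in APAP vs Control, 0.25 in dmPGE2+APAP vs APAP and 0.50 in dmPGE2+APAP vs Control, beside -0.05, 0.00 and -0.03 over all tested miRNAs. The 3 tested members are among these 8 and stood at 0.56, 0.57 and 0.56 in dmPGE2+APAP vs Control. The other tested rows of the list ran from -0.46 to 1.21 there, so that median is in part the members' own. Besides miR-132-5p the most abundant was miR-9-5p, a neuronal miRNA, with 6.50, 29.0 and 7.15 CPM in dmPGE2+APAP, against 5.18, 8.35 and 8.85 CPM in APAP and 7.19, 3.804 and 4.88 CPM in Control. Like miR-132-5p it was high in dmPGE2+APAP library 2, there on 34 reads. Its log2 value was 0.72 against APAP (edgeR adjusted p 0.896) and 1.21 against Control (edgeR adjusted p 0.336). miR-34c-5p, of a cluster also reported as a CREB target, had log2 values of 0.22, -0.11 and 0.10 in the 3 comparisons in the order above.

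Because the cluster is a neuronal one, the markers of neurons were set beside it. Their 9 rows summed to 115 to 186 CPM in dmPGE2+APAP, 149.7 to 169 CPM in APAP and 76.4 to 124 CPM in Control. Most of that sum was miR-128-3p, at a mean of 105.0 CPM over all libraries, followed by miR-218-5p at 9.25 CPM. miR-128-3p had log2 values of 0.78 in APAP vs Control (edgeR adjusted p 0.111), -0.46 in dmPGE2+APAP vs APAP (0.703) and 0.32 in dmPGE2+APAP vs Control (0.604). At the low end miR-124-3p, a defining brain miRNA, was at 0 in dmPGE2+APAP and in Control and had 1 read in APAP, and miR-138-5p was at 0 in APAP. Of the 5 tested members 0 were called by edgeR in any comparison, with 1 at an unadjusted p under 0.05 in APAP vs Control (miR-128-3p) and 1 in dmPGE2+APAP vs Control, beside 9.72% and 10.6% of all tested miRNAs. The second is miR-9-5p, which the cAMP list also holds. The neuronal list had median log2 values of 0.47, 0.21 and 0.54 in the 3 comparisons in the order above. Those of the cAMP list were 0.21, 0.25 and 0.50, so raised medians were not particular to it. DESeq2 called 1 of the neuronal list in APAP vs Control, and limma-voom called 0 of it. In that comparison DESeq2 called 10 of the 616 miRNAs to which it gave an adjusted p. Of the immune-stimulus miRNAs, with which miR-132 is often grouped, edgeR called 1 of 5 tested higher in APAP than in Control. It was the passenger strand miR-21a-3p, in a comparison where edgeR called 0.833% of all tested miRNAs. The immune-stimulus list had median log2 values of 0.05, 0.02 and 0.07 in the 3 comparisons in the order above.

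Patterns over the libraries were compared with that of miR-132-3p. Likeness was the Pearson correlation of log2 CPM over the 9 libraries, taken as a description among 206 miRNAs with a mean of at least 10 CPM, whose median was -0.04. Outside the cluster the highest values were 0.70 for miR-223-3p, a miRNA of neutrophils and macrophages, 0.69 for let-7d-3p, 0.68 for miR-328-3p, 0.63 for miR-339-5p and 0.62 for miR-15b-5p. At the other end were miR-181d-5p at -0.86, miR-378a-5p at -0.77 and miR-423-5p at -0.74. Depth and scaling are shared by all miRNAs of a library, and 1 point rests on 4 reads of miR-132-3p. Without that library the order changed: of these 5, miR-339-5p stood at 0.85, let-7d-3p at 0.68, miR-328-3p at 0.63, miR-223-3p at 0.61 and miR-15b-5p at 0.55. Of the members themselves miR-212-3p correlated with miR-132-3p at 0.77, above all of these, and miR-212-5p at 0.69, while miR-132-5p stood at -0.15. The members were not held to the minimum of 10 CPM, and each averaged less. With 0 to 8 reads in a library, miR-212-3p is not ranked on equal terms with the others. Without dmPGE2+APAP library 2 these members stood at 0.69, 0.89 and 0.57 in the same order, so miR-212-3p then lay below miR-339-5p.

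miR-223-3p had 18.4, 7.67 and 15.1 CPM in dmPGE2+APAP, against 34.8, 19.0 and 29.2 CPM in APAP and 13.9, 10.7 and 15.8 CPM in Control. As with miR-132-3p, library 2 was the lowest in dmPGE2+APAP and in APAP. Every APAP library of miR-223-3p, however, lay above every library of the other groups. Of all 946 rows, 5.18% were wholly higher in APAP than in Control and 4.65% wholly lower in dmPGE2+APAP than in APAP. These shares include the rows too scarce to be tested. The shares among the 360 tested miRNAs, to which miR-223-3p belongs, were not computed. miR-223-3p was also picked for its likeness to miR-132-3p over these same libraries. The 4 myeloid rows summed to 153 to 238 CPM in dmPGE2+APAP, 177 to 319 CPM in APAP and 124 to 233 CPM in Control. Most of that sum was miR-142a-5p, at a mean of 173 CPM over all libraries, beside 18.3 CPM for miR-223-3p. In APAP vs Control miR-142a-5p had a log2 value of 0.41 and miR-223-3p 1.03. In dmPGE2+APAP vs APAP they had -0.24 and -0.93. All 4 myeloid rows had log2 values above 0 in APAP vs Control (median 0.59) and below 0 in dmPGE2+APAP vs APAP (median -0.75). Of these rows 0 were called by edgeR in either, with 2 and 1 at an unadjusted p under 0.05. DESeq2 and limma-voom also called 0. The share of all tested miRNAs at that unadjusted p was 9.72% in APAP vs Control and 6.39% in dmPGE2+APAP vs APAP.

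Red-cell miRNAs had values of the same signs and larger medians. The 4 erythroid rows, miR-451a the most abundant of them, summed to 352 to 379 CPM in dmPGE2+APAP, 731 to 1398 CPM in APAP and 431 to 543 CPM in Control. The APAP libraries thus lay above those of both other groups. Of all 946 single rows, tested or not, 5.18% lay wholly higher in APAP than in Control, and 4.65% wholly lower in dmPGE2+APAP than in APAP. The shares among tested miRNAs alone were not computed. All 4 erythroid rows had log2 values above 0 in APAP vs Control (median 1.07) and below 0 in dmPGE2+APAP vs APAP (median -1.30). In dmPGE2+APAP vs Control 1 was above 0 (median -0.24). miR-451a was the single miRNA that edgeR called in dmPGE2+APAP vs APAP, at -1.44 (SE 0.25, edgeR adjusted p 0.00993). Without APAP library 1 or without dmPGE2+APAP library 2, edgeR called 0 miRNAs in that comparison. In APAP vs Control edgeR called 0 of the 4 and DESeq2 called 2, and all 4 had an unadjusted p under 0.05 with edgeR. Of all tested miRNAs edgeR called 0.833% in that comparison, and 9.72% had an unadjusted edgeR p under 0.05. DESeq2 called 10 of the 616 miRNAs to which it gave an adjusted p. The endothelial and the stellate and mesenchymal lists had medians of 0.09 and -0.11 in APAP vs Control and of 0.16 and 0.14 in dmPGE2+APAP vs APAP. The part of the myeloid and erythroid rows in the values of miR-132-3p and miR-212-3p was not tested.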

How the data were processed

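The deposited table of 946 mature miRNAs holds, per the file headers, read counts and TPM of the 9 liver libraries. The counts are whole numbers as the authors deposited them. The deposited TPM values are proportional to the counts within each library and served for 1 alternative. The submitters' processing notes name Bowtie and mm10. How reads were counted, against which miRNA annotation and with which strand setting is not given in the sources used here. Columns of APAP and dmPGE2+APAP match the labels. The 3 columns with the prefix BC were taken as Control by elimination and numbered as in their names, which the labels do not tie to the Control samples. Unused value columns numbered 0.

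The authors' counts were fitted in R 4.3.3 with edgeR 4.0.16 (TMM, filterByExpr with a minimum count of 10 and total of 15, robust quasi-likelihood test) over all 9 libraries with 3 group means. Adjusted p-values are Benjamini-Hochberg over the 360 tested miRNAs, at a threshold of 0.05. Standard errors and 95% intervals derive from the F statistic. The fit was tested on simulated data. Alternatives used DESeq2 1.42.0, limma 3.58.1 (voom, and log2 TPM with pseudocount 1), other scalings, filters and groupings, the replicate number as a block, and each library left out. Correlations used log2 CPM with a prior count of 2.

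The members and lists were chosen with earlier results of these data known. The text names the 4 members, the 5 miRNAs most and 3 least like miR-132-3p, and of each list the called or otherwise the 2 most abundant members where these bear on the cluster. miR-34c-5p, miR-184-3p, miR-124-3p and miR-138-5p were named after their values were seen. RefSeq sequences matched 4 of 4 members.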

Additional observations from a re-analysis of the deposited data

How the results depend on the processing

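The members kept their direction and their side of the threshold in 159 of 162 refits, with no adjusted p below 0.0911. The exceptions lay in dmPGE2+APAP vs APAP: miR-132-3p turned to 0.061 with limma-voom and ran from -0.69 (without APAP library 2) to 0.11 (without APAP library 3), and miR-212-5p ran from -0.094 (without APAP library 2) to 0.30 (without APAP library 3). The cause of these turns was not tested. A mean of at least 10 CPM removed all 4 members, so it gave no value for them. Library totals moved the median of all miRNAs by 0.25 in APAP vs Control, where miR-132-3p stood at 1.12, and by 0.23 in dmPGE2+APAP vs Control. The deposited TPM gave group means within 1 SD in 11 of 12 cases; that of miR-212-5p in dmPGE2+APAP was 1.85. Depth limits miR-212-3p most, with 0 to 8 reads in a library. Leaving out libraries for its read ratio was chosen after seeing the data.

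Counts of called miRNAs over the whole table moved more. APAP vs Control, with 3 calls, gave 8 with library totals, 7 with RLE factors, 10 with DESeq2, 8 with limma on TPM, 9 without a filter, 0 at 10 CPM, 7 with only these 2 groups, 0 with the replicate block, and 0 to 9 with a library left out: 0 without APAP library 1 or 3 or Control library 2, 1 without Control library 1 or 3, 9 without APAP library 2, and 6 or 8 without a dmPGE2+APAP library. dmPGE2+APAP vs APAP, with 1, gave 5 with DESeq2, 9 without a filter, 0 with only these 2 groups, 2 with the replicate block and 0 to 5 with a library left out: 0 without APAP library 1 or dmPGE2+APAP library 2, 4 without dmPGE2+APAP library 1 and 5 without APAP library 2. dmPGE2+APAP vs Control, with 1, gave 2 with library totals, RLE factors or no filter, 0 at 10 CPM and 1 to 2 with a library left out, 2 being without APAP library 3 or dmPGE2+APAP library 1. The filter at 10 CPM left 208 miRNAs to test in place of 360. The causes of these changes in the counts were not tested.

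Same-numbered libraries correlated in their deviations from group means at between -0.25 and 0.17, with pairs 1 and 3 of dmPGE2+APAP and APAP at 0.17 and 0.12. Not every pair was over 0.1 and not every library correlated best with its own number, so the numbers were not taken as pairs. The numbers of the Control libraries are those of their columns. With the block miR-132-3p stood at 0.64 in APAP vs Control, -0.29 in dmPGE2+APAP vs APAP and 0.34 in dmPGE2+APAP vs Control, and no member was called.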
